A study of Citrus maxima with 6 samples.

Results

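The terpene synthase family of pomelo was described in the ripe pulp of 2 cultivars. Members were all genes whose annotation names a terpene synthase, terpenoid synthase or terpenoid cyclase, without genes whose best Arabidopsis hit is the geranylgeranyl diphosphate synthase AT4G36810. This rule found 81 of the 30123 genes of the deposited table, and the exclusion removed 0 of the genes with such names. RNA of pulp (sarcocarp) from a white-sarcocarp cultivar, Citrus maxima (Burm.) Osbeck, and a red-sarcocarp cultivar, Citrus maxima Merr. var. Tubtim Siam, was sequenced in 3 libraries per cultivar, each a biological repeat of mixed ripe orchard fruits, and the labels name no treatment. Because the cultivars are different plants grown in orchards, their genotype and any difference in growth or ripening cannot be told apart.

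Terpene synthases turn prenyl diphosphates, the chain-like precursors of all isoprenoids, into the carbon skeletons of terpenes. Geranyl diphosphate gives monoterpenes such as limonene and linalool, farnesyl diphosphate gives sesquiterpenes such as valencene, and geranylgeranyl diphosphate gives diterpenes, including the precursors of gibberellins. Citrus fruits are known for such volatiles, which are stored in the oil glands of the peel and also contribute to the aroma of the juice sacs. In plants the plastid supplies precursors through the methylerythritol phosphate (MEP) pathway, and the cytosol through the mevalonate pathway.

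The label was checked against the best Arabidopsis hits, and 76 of the 81 genes matched terpene synthases. By these hits 32 members fell into the TPS-a clade, which in flowering plants holds mainly sesquiterpene synthases, and 32 into the TPS-b clade of mainly monoterpene synthases. A further 7 members were of TPS-g, the clade of acyclic products such as linalool, 3 of TPS-c (copalyl diphosphate synthase) and 2 of TPS-e/f (kaurene and geranyllinalool synthase). The other 5 members were not terpene synthases in the strict sense. Of these, 4 had hits among prenyl diphosphate synthases, which make the substrates, and Cg5g008710 matched AT1G62730, a protein of the terpenoid synthase superfamily. No oxidosqualene cyclase, the enzyme type that forms triterpenes, was among the members. A best hit places a gene in a family but does not give the product of the pomelo enzyme.

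Values are FPKM, reads scaled to transcript length and library size, as deposited for each library. The FPKM of all genes summed to between 812335 and 835575 per library, and 15920 to 16250 genes were above 0. Reads of single libraries were not analysed here, so precision rests on the spread of 3 repeats, and the authors' mean normalized count over all 6 libraries is used to show how many reads lie behind a gene. A gene listed at 0 FPKM is described as listed at 0, because 2154 genes at 0 in every library had a mean normalized count above 0. The cultivars were compared on log2(FPKM + 0.1) with limma over the 14158 genes with a mean of at least 1 FPKM in at least 1 cultivar. A gene was called at a log2 difference of at least 2 in size and a Benjamini-Hochberg adjusted p of at most 0.01, the thresholds of the study's methods. Differences are red minus white, and the added 0.1 makes those of weakly expressed genes too small. In bulk pulp, fewer cells of a type and less RNA per cell cannot be told apart.

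Most of the family was not detected in ripe pulp. Of the 81 members, 58 were listed at 0 FPKM in all 6 libraries, and 50 of these also had a mean normalized count of 0. Only 23 members, or 28.4%, were above 0 in any library, against 60.5% of all genes. The level required for the comparison was reached by 10 members (12.3%), against 47.0% of all genes. No test was made of these shares.

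The members listed at 0 were spread over every large group of hits. Of the 24 members with the best hit AT5G23960 (TPS21, an Arabidopsis sesquiterpene synthase that makes caryophyllene in flowers), 7 were above 0. Among the 18 members with the hit AT3G25830, a cineole synthase of Arabidopsis roots, 3 were above 0 and 0 reached the level for comparison. The 5 members with the hit AT4G16730 and the 2 with the hit AT4G16740, related to ocimene synthases, were all listed at 0. The 7 members with the hit AT1G61680 (TPS14, a linalool synthase) included 3 above 0, and 2 of them reached the level for comparison.

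**Figure D1:**
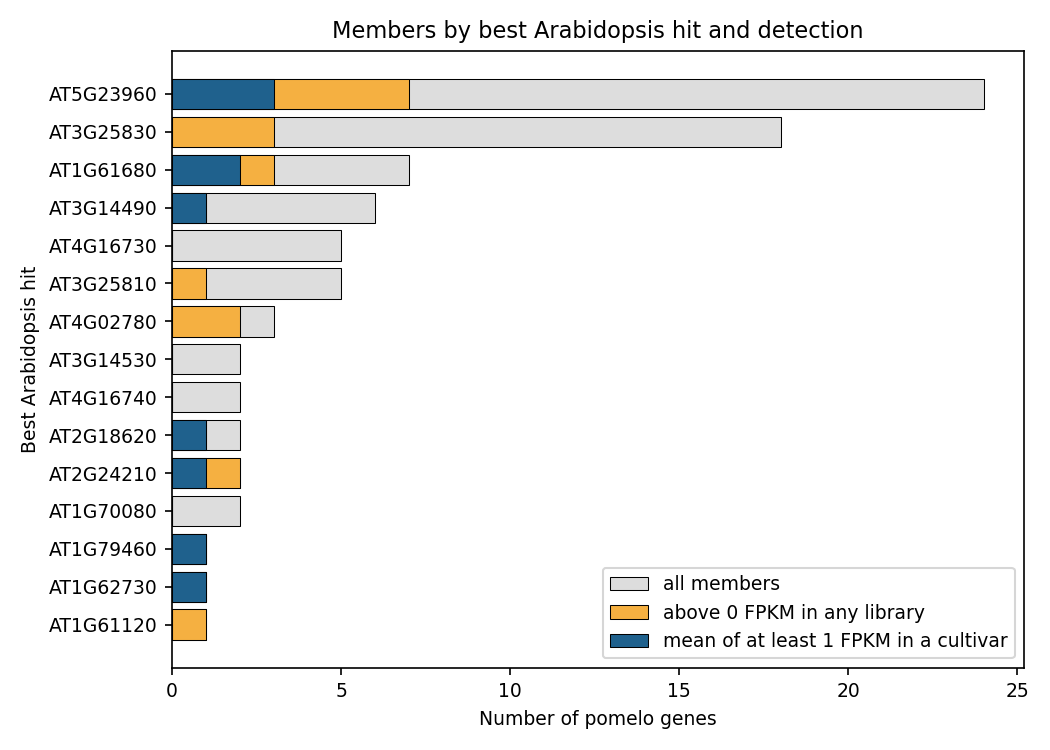
Number of pomelo genes for each best Arabidopsis hit (grey, all members), with those above 0 FPKM in any library (orange) and those with a mean of at least 1 FPKM in a cultivar (blue) drawn over them from 0. The largest group, AT5G23960, holds 24 genes, of which 7 are above 0 and 3 reach the level for comparison.

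By their identifiers the members lay close together. In 12 runs, members followed each other with identifier numbers no more than 100 apart, and these runs held 55 of the 81 genes. Chromosome 2, as given by the identifier, held 38 members. The run from Cg2g022810 to Cg2g023110 held 10 members, all listed at 0, and the run from Cg8g018170 to Cg8g018240 held 7 members, also all at 0. Neighbouring members may be similar enough to share reads, and how RSEM divided such reads was not tested.

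The transcripts of the family came almost wholly from a pair of neighbouring TPS-a genes. Cg5g022150, with the hit AT5G23960, had 732, 899.5 and 1158 FPKM in the red and 1043, 1069 and 526 FPKM in the white libraries. It ranked between place 69 and place 241 among all genes of a library, and its mean normalized count was 17229. Cg5g022140, with the hit AT3G14490 (an Arabidopsis TPS-a gene), had 140 FPKM in red replicate 1, 173 in red replicate 2 and 218 in red replicate 3. Its white libraries had 215, 192 and 99.6 FPKM. In both genes white replicate 3 was the lowest library and red replicate 3 the highest, and the cultivars overlapped.

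Together these genes made up 86.4% to 94.0% of the summed FPKM of all members in a library. The sum over all members was 966, 1141 and 1470.5 FPKM in the red and 1367, 1343 and 725 FPKM in the white libraries, which is 0.0891% to 0.181% of all FPKM. Without the pair it was 68.8 to 94.9 FPKM in the red and 81.5 to 108 FPKM in the white libraries.

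The genes of the pair kept nearly the same proportion while their level varied between libraries. Cg5g022150 stood at 5.22, 5.20 and 5.32 times the FPKM of Cg5g022140 in the red libraries. The ratio was 4.84, 5.56 and 5.28 in the white libraries. Library depth does not enter a ratio within a library, but reads shared between the genes would.

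**Figure D2:**
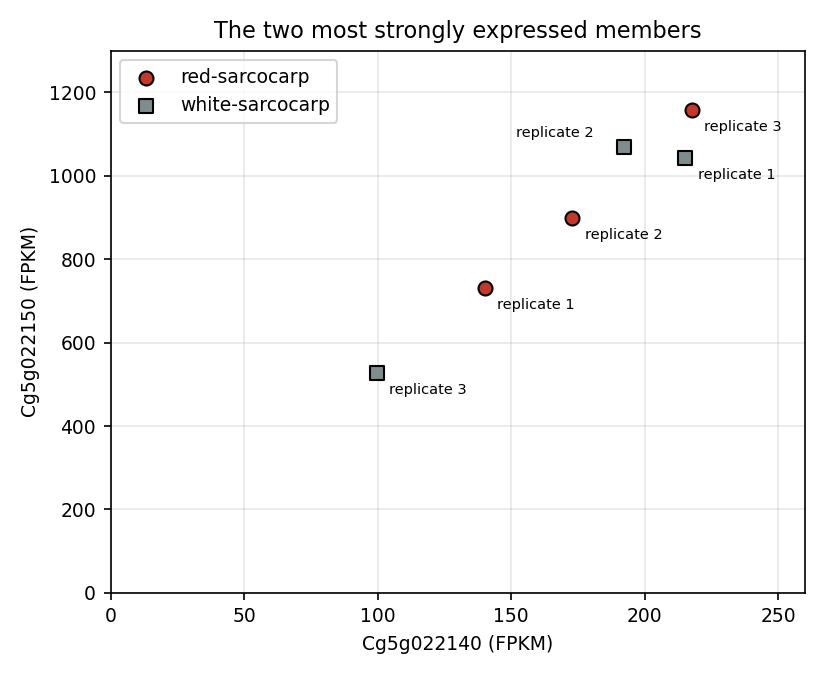
FPKM of Cg5g022150 against Cg5g022140 in each library (red circles, red-sarcocarp pomelo, and grey squares, white-sarcocarp pomelo, with replicate numbers). The 6 libraries lie along a line through the origin, from white replicate 3 (99.6 and 526 FPKM) to red replicate 3 (218 and 1158 FPKM), and the cultivars are mixed.

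Between the cultivars neither gene differed beyond the spread of the repeats. For Cg5g022150 the red libraries averaged 929.7 ± 215 FPKM and the white libraries 879.6 ± 306 FPKM (SD, n = 3). The log2 difference was 0.13 (95% interval -0.58 to 0.83, adjusted p = 0.756 from limma). For Cg5g022140 it was 0.12 (95% interval -0.59 to 0.83, adjusted p = 0.772 from limma). A difference above the threshold of 2 lies outside both intervals. The sign turned without white replicate 3, to -0.21 for Cg5g022150 and -0.23 for Cg5g022140.

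Of the 10 members compared, 2 passed both thresholds with lower expression in red-sarcocarp pomelo and 0 with higher expression. Among all 14158 genes 3.65% were called lower and 3.11% higher. At an unadjusted p under 0.05 from limma, 2 members were higher and 2 lower, where 3851 and 3761 of all 14158 genes were. The median log2 difference was -0.03 over the 10 members and 0.02 over all genes. The repeats of the cultivars did not overlap in 3 of the 10 members, against 57.7% of all genes compared. In 1 of the 3 red lay above white (29.4% of all genes) and in 2 white above red (28.3%). Both called members reached the level for comparison through the white libraries alone, so they had to differ to some degree, and the counts describe the expressed members and not the family.

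**Figure D3:**
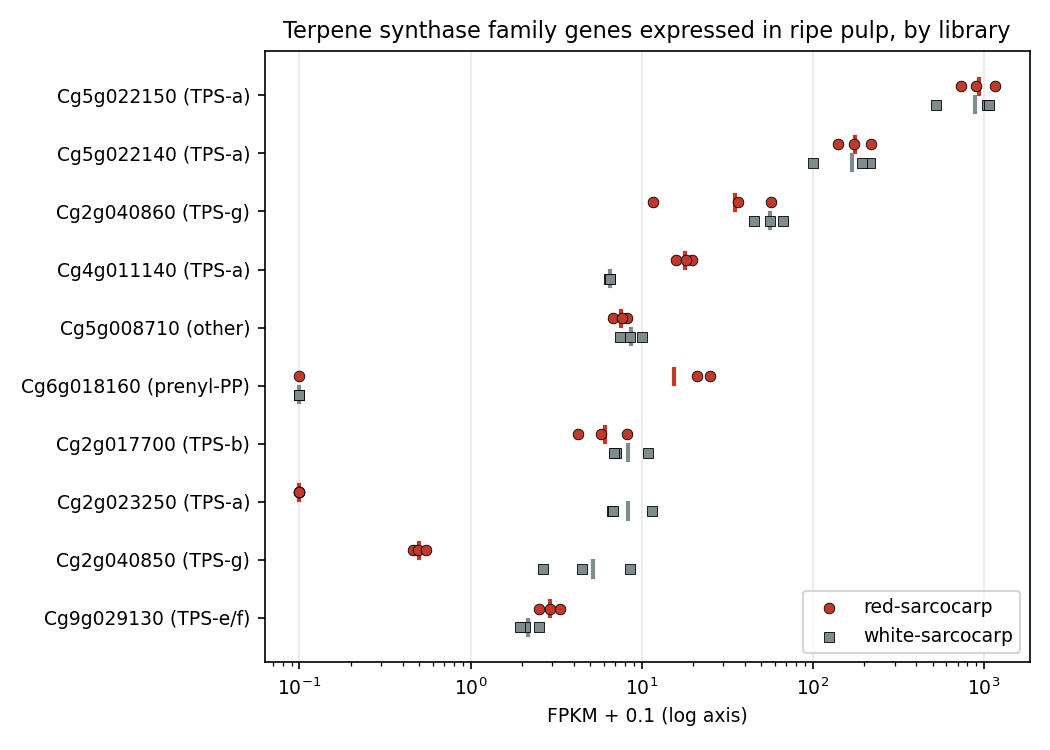
FPKM + 0.1 on a log axis for the 10 members compared, with red circles for the 3 red and grey squares for the 3 white libraries, and a vertical bar at each mean. Values listed at 0 lie at 0.1 and cover each other. Cg2g023250 and Cg2g040850 have all white libraries to the right of all red libraries, Cg4g011140 the reverse.

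The first of the lower genes was Cg2g023250, a TPS-a gene with the hit AT5G23960. Each red library listed it at 0 FPKM, whereas the white libraries had 11.3, 6.63 and 6.65 FPKM, so the cultivars did not overlap. It passed both thresholds (adjusted p = 4.59e-05 from limma) and in all 17 alternative settings (adjusted p from 3.36e-05 to 0.000858). The red libraries have no spread (SD 0), and the gene entered the comparison through the white libraries alone, which limits what this p shows. The size of the log2 difference is set by the added value, from -9.63 with a pseudocount of 0.01 to -3.16 with a pseudocount of 1. No fold is given against a cultivar listed at 0. Its mean normalized count over the 6 libraries was 72.1.

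Cg2g023250 opens a run of 11 members that ends at Cg2g023430, and this run was above 0 in the white libraries alone. Of its 11 genes 5 had FPKM above 0 in a white library and 0 in a red library. The sum over the run was 12.2, 7.47 and 7.22 FPKM in the white libraries. The neighbour Cg2g023260 had 0.83, 0.58 and 0.28 FPKM in the white libraries and a mean normalized count of 13.5, and it was too low for the comparison. Without a filter on low values it was called lower in red (adjusted p = 0.00299 from limma), where 3.35% of 18220 genes were called lower.

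The other members of the run that were above 0 lay near the limit of the 2 decimals of the table. Cg2g023300 had 0.04, 0.04 and 0.29 FPKM in the white libraries. Cg2g023360 had 0.08 FPKM in white replicate 2 alone, and Cg2g023430 had 0.03 and 0.14 FPKM in white replicates 1 and 2. Their mean normalized counts were 2.04, 1.10 and 0.15. These levels are too low to compare cultivars at this depth. Of the 23 members above 0 in any library, 5 were above 0 in white libraries alone, all of this run, 4 in red libraries alone and 14 in both. Of the 18220 genes above 0 in any library, 1113 were so in white libraries alone and 918 in red libraries alone. No test was made of these counts.

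The other lower gene was Cg2g040850, with the linalool synthase hit AT1G61680. It had 0.36, 0.39 and 0.45 FPKM in the red libraries and 2.53, 4.37 and 8.46 FPKM in the white libraries. Every white library lay above every red library, and the white libraries spread more than the red ones. The red libraries averaged 0.400 ± 0.0458 FPKM and the white libraries 5.12 ± 3.04 FPKM (SD, n = 3), a 12.8-fold difference of the means. The log2 difference was -3.22, with a standard error of 0.43 (adjusted p = 0.00126 from limma). The gene was called in all 17 alternative settings, with adjusted p from 0.00125 to 0.00712, and came nearest to the threshold with a pseudocount of 1 (-2.01).

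Its neighbour Cg2g040860, with the same Arabidopsis hit, was the third most strongly expressed member. It had 36.3, 11.6 and 56.7 FPKM in the red libraries and 66.9, 45.3 and 55.7 FPKM in the white libraries. Red replicate 2 was low, while red replicate 3 lay within the range of the white libraries. The log2 difference was -0.94 (95% interval -2.18 to 0.31, adjusted p = 0.186 from limma), so a difference of the size of the threshold was not excluded by the interval. Without red replicate 2 it was -0.28.

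Within a library, Cg2g040850 stood at 0.991%, 3.37% and 0.794% of the FPKM of Cg2g040860 in the red libraries. In the white libraries it stood at 3.79%, 9.64% and 15.2%. The cultivars did not overlap, with the nearest libraries at 3.37% and 3.79%. No test of this ratio is given, because Cg2g040850 had already been called lower. In the same run, Cg2g040890 (hit AT1G61680) had at most 0.22 FPKM in any library but a mean normalized count of 29.2, and Cg2g040870 and Cg2g040880 were listed at 0. The neighbours may share reads, and their part in the difference was not tested.

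**Figure D4:**
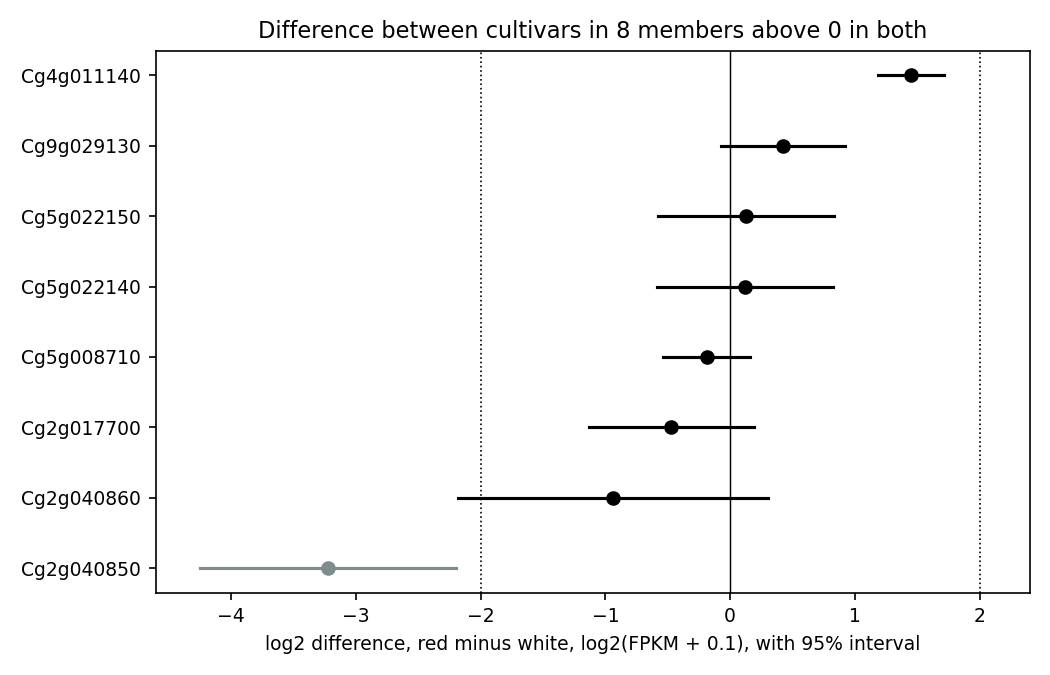
Log2 difference, red minus white, with its 95% interval from limma for the 8 compared members that were above 0 in both cultivars, with dotted lines at the threshold of 2 in either direction. Only Cg2g040850 (-3.22, grey) passed both thresholds, while Cg4g011140 (1.45) was higher in red but below the threshold.

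Cg4g011140 had the clearest difference in the opposite direction. This TPS-a gene with the hit AT5G23960 had 15.8, 19.5 and 17.9 FPKM in the red libraries and 6.44, 6.31 and 6.45 FPKM in the white libraries. The red libraries all lay above the white ones, and the white libraries hardly differed. On average red had 17.7 ± 1.86 FPKM against 6.40 ± 0.0781 FPKM for white (SD, n = 3), or 2.77-fold. The log2 difference of 1.45 (95% interval 1.19 to 1.72, adjusted p = 0.000153 from limma) met the threshold for p but not that for size. With a log2 difference of 1 and an adjusted p of 0.05 as thresholds it was the 1 member called higher, where 8.95% of all genes were, and 2 members were called lower, where 9.18% were.

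The TPS-a genes that were expressed thus followed 3 patterns in these libraries, although they share 2 Arabidopsis hits. Cg5g022150 and Cg5g022140 were strong and overlapped between the cultivars, Cg2g023250 was listed at 0 in red, and Cg4g011140 had higher values in red. Of these 4 genes 3 have the hit AT5G23960.

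The monoterpene synthase clade TPS-b was weak in comparison. Its 32 members summed to 5.01 to 9.55 FPKM in the red and 7.19 to 11.4 FPKM in the white libraries. Most of this was Cg2g017700, with the hit AT2G24210 (TPS10, a myrcene and ocimene synthase of Arabidopsis). It had 5.64, 4.16 and 8.10 FPKM in the red and 7.0, 6.82 and 10.8 FPKM in the white libraries, which overlapped. Its log2 difference was -0.47 (95% interval -1.13 to 0.19, adjusted p = 0.207 from limma).

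Other TPS-b members stayed below 1 FPKM in every library. Cg8g012040, with the cineole synthase hit AT3G25830, had 0.25, 0.67 and 0.51 FPKM in the red and 0.39, 0.37 and 0.52 FPKM in the white libraries, and its neighbour Cg8g012050 was listed at 0. Cg3g004140, with the hit AT3G25810 (a monoterpene synthase), had 0.93, 0.18 and 0.51 FPKM in the red libraries. In the white libraries it was at 0, 0 and 0.05 FPKM, so the cultivars did not overlap. Without a filter on low values its log2 difference was 2.29 (adjusted p = 0.0144 from limma), which missed the threshold, and its mean normalized count was 8.38. In the same run Cg3g004090 had 0.39 FPKM in red replicate 3 and at most 0.1 in any other library.

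Members with hits among diterpene synthases, which include those of the gibberellin pathway, were listed at 0 or at low level. Only 1 of them reached the level for comparison. Cg9g029130, with the hit AT1G79460 (ent-kaurene synthase), had 2.80, 3.25 and 2.41 FPKM in the red and 2.41, 1.99 and 1.83 FPKM in the white libraries. The cultivars met at 2.41 FPKM, and the log2 difference was 0.42 (95% interval -0.07 to 0.92, adjusted p = 0.139 from limma). Of the 3 members with the hit AT4G02780 (copalyl diphosphate synthase, the step before kaurene synthase), none reached 0.3 FPKM in any library. The following 3 genes were picked after their values were seen. Cg5g035420 had 0.13, 0.17 and 0.04 FPKM in the red and 0.13, 0.12 and 0.03 FPKM in the white libraries. Cg5g017600 had 0.27, 0.03 and 0.18 FPKM in the red libraries and was listed at 0 in the white ones. Cg2g041640, with the geranyllinalool synthase hit AT1G61120, had 0.03, 0 and 0.04 FPKM in the red and 0.19, 0.22 and 0.23 FPKM in the white libraries. Without a filter on low values neither of the last 2 genes passed the thresholds (adjusted p = 0.0704 for Cg5g017600 and 0.0156 for Cg2g041640 from limma).

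Among the members that are not terpene synthases, Cg6g018160 differed most between libraries. With the hit AT2G18620, a geranylgeranyl diphosphate synthase-like gene, it had 24.9 and 20.8 FPKM in red replicates 1 and 2 but was listed at 0 in red replicate 3 and in all white libraries. The red libraries thus disagreed with each other, and the gene was not called (adjusted p = 0.0690 from limma). It reached the level for comparison through the red libraries alone. Leaving out red replicate 3, the only red library at 0, gave a call (adjusted p = 9.99e-05 from limma), but that choice of library fixes the outcome. Its mean normalized count was only 31.0, or 4.08 for each FPKM, against a median of 31.0 and a 5th percentile of 7.39 over the genes compared, so few reads lie behind its FPKM. Cg5g008710 had 6.69, 8.10 and 7.60 FPKM in the red and 9.88, 8.40 and 7.36 FPKM in the white libraries. Its log2 difference was -0.19 (95% interval -0.54 to 0.16, adjusted p = 0.336 from limma).

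The genes that supply substrates to the family, and those that draw farnesyl diphosphate into squalene and sterols instead, were taken from lists set by best Arabidopsis hit, without members. Of the 70 genes of both kinds 32 were compared, and 0 passed both thresholds in either direction, against 6.76% of all genes. At an unadjusted p under 0.05 from limma, 8 were higher and 8 lower, where 3851 and 3761 of all 14158 genes were. The adjusted p alone was met by 3 with higher and 4 with lower values in red-sarcocarp pomelo, where 13.4% and 14.1% of all genes met it. Of the 4 with lower values 2 belong to the squalene and sterol list. The median log2 difference was 0.05.

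The 3 with higher values were all of the plastid MEP pathway. Cg5g004930 (AT5G62790, the reductoisomerase DXR at the second step) had 82.0, 85.2 and 85.9 FPKM in the red and 43.0, 44.5 and 42.3 FPKM in the white libraries. Its log2 difference was 0.96 (adjusted p = 0.000107 from limma). Cg9g003730 (AT4G15560, deoxyxylulose phosphate synthase, the entry step) had 13.1, 14.2 and 13.6 FPKM in the red libraries. Its white libraries had 6.98, 6.91 and 6.44 FPKM, a log2 difference of 1.00 (adjusted p = 0.000407 from limma). Cg2g047400 (AT2G02500, the cytidylyl transfer step of the pathway) averaged 19.9 ± 0.514 FPKM in red against 13.5 ± 0.965 FPKM in white (SD, n = 3), a log2 difference of 0.55. In none of these genes did the cultivars overlap, but they were picked by adjusted p, which favours this. Red lay above white without overlap in 29.4% of all genes compared.

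Not every MEP gene had higher values. Of the 9 compared, 7 had a positive and 2 a negative log2 difference, with a median of 0.50. Among all 14158 genes compared, 7309 were positive and 6849 negative, with a median of 0.02. At an unadjusted p under 0.05 from limma, 6 MEP genes were higher and 0 lower in red, where 3851 and 3761 of all 14158 genes were. In 5 MEP genes all red libraries lay above all white ones (29.4% of all genes compared), while the reverse held in 0 (28.3%). The most strongly expressed, Cg8g020410 (AT5G60600, hydroxymethylbutenyl diphosphate synthase), averaged 159 ± 15.8 FPKM in red against 193 ± 30.2 FPKM in white (SD, n = 3), and its libraries overlapped.

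In the cytosolic branch, 4 of 9 mevalonate pathway genes had a positive and 5 a negative difference, with a median of -0.03. At an unadjusted p under 0.05 from limma, 4 were lower and 0 higher in red, where 3761 and 3851 of all 14158 genes were. In 3 all white libraries lay above all red ones (28.3% of all genes compared), while the reverse held in 0 (29.4%). The FPKM summed over the 9 genes was higher in red, at 707 to 723 FPKM against 665 to 696 FPKM in the white libraries. HMG-CoA reductase, the main control step, had its highest level in Cg3g025800 at 324 ± 16 FPKM in red against 294 ± 48.2 FPKM in white (SD, n = 3). The adjusted p alone was met by Cg2g020490 (AT5G48230, acetoacetyl-CoA thiolase), at 31.5 ± 1.87 FPKM in red against 42.4 ± 0.402 FPKM in white (SD, n = 3). It was also met by the only isomerase gene, Cg6g000940 (AT3G02780), which interconverts the C5 precursors and averaged 71.1 ± 5.63 FPKM in red against 97.1 ± 7.49 FPKM in white (SD, n = 3).

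Of the 7 prenyl diphosphate synthases compared outside the family 0 met the adjusted p, and 1 had an unadjusted p under 0.05 from limma, with higher values in red. Cg4g014160 (AT4G17190, farnesyl diphosphate synthase, which makes the substrate of sesquiterpene synthases) had 74.9, 84.1 and 88.7 FPKM in the red and 92.6, 84.5 and 75.2 FPKM in the white libraries. The log2 difference was -0.02 (standard error 0.10, adjusted p = 0.864 from limma). Cg1g003650, the highest of the genes with the hit AT4G36810, averaged 33.0 ± 6.56 FPKM in red against 34.9 ± 5.64 FPKM in white (SD, n = 3). Cg2g039810, with the hit AT2G34630 (annotated as geranyl diphosphate synthase), had 12.4, 15.6 and 13.5 FPKM in the red and 12.2, 11.1 and 9.44 FPKM in the white libraries. Its red libraries all lay above its white ones, and the log2 difference was 0.34 (adjusted p = 0.0864 from limma).

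Farnesyl diphosphate is also drawn into squalene and sterols, and there 4 of 6 genes had lower and 2 had higher values in red. Of all 14158 genes compared, 6849 had lower values. Cg1g006940 (AT4G37760, squalene epoxidase) had 36.1, 31.9 and 37.3 FPKM in the red and 62.4, 65.4 and 71.8 FPKM in the white libraries. Its log2 difference was -0.92 (adjusted p = 0.000412 from limma). Cg7g023010 (AT5G13710, sterol methyltransferase) averaged 43.6 ± 0.369 FPKM in red against 68.3 ± 2.49 FPKM in white (SD, n = 3), a log2 difference of -0.65. Cg8g008310, the squalene synthase gene, averaged 10.3 ± 2.17 FPKM in red against 13.8 ± 3.17 FPKM in white (SD, n = 3) and overlapped. The 2 genes with higher values were Cg3g013140 (AT1G58440) and Cg3g024650 (AT1G20330, sterol methyltransferase). Cg3g013140 had 6.18, 5.08 and 5.27 FPKM in the red and 3.44, 3.45 and 4.4 FPKM in the white libraries. Its log2 difference was 0.54 (adjusted p = 0.0332 from limma). Cg3g024650 averaged 122 ± 29.9 FPKM in red against 108 ± 11.7 FPKM in white (SD, n = 3) and overlapped.

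**Figure D5:**
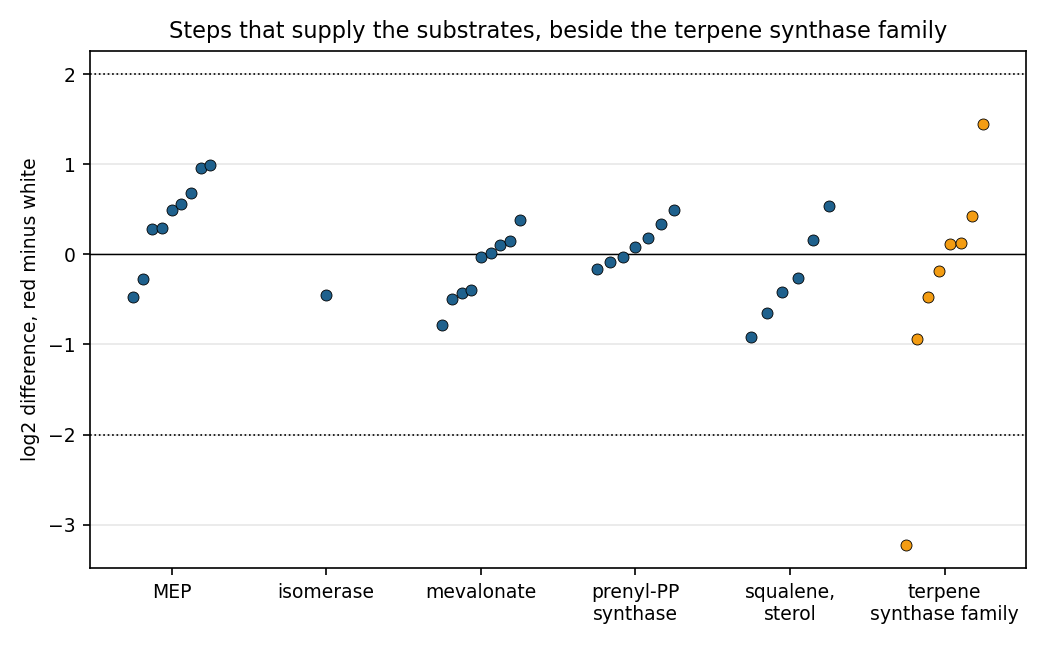
Log2 difference, red minus white, of each compared gene in the lists of supplying and competing steps (blue), beside the 8 members above 0 in both cultivars (orange), with dotted lines at the threshold of 2. No blue point reaches the threshold, 7 of 9 MEP genes lie above 0, and 1 member, at -3.22, lies below -2.

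Marker genes of other tissues were compared because pulp can hold seed, vascular or green tissue, and no list of markers that define juice sacs was set. Seed storage genes, 7 in all, summed to 5.40 to 27.8 FPKM in the red libraries, highest in red replicate 3, and to 0.09 to 0.54 FPKM in the white libraries. Of them Cg9g008230 and Cg9g008240, with a hit among the cupin storage proteins, were called higher in red, and in white libraries 4 of the 7 were listed at 0. The 7 xylem genes summed to 16.2 to 25 FPKM in red and 8.20 to 19.9 FPKM in white. Of these Cg4g023980, a cellulose synthase family gene, was called lower in red. Cg8g000170, a xylem cysteine peptidase gene, had all red libraries above all white ones and a log2 difference of 1.05 (adjusted p = 0.0487 from limma). It held most of the xylem sum in red, at 24.5, 15.1 and 20.5 FPKM. Cg8g000260 averaged 0.71 FPKM in red against 1.91 FPKM in white and overlapped. Below the level for comparison, Cg2g043600 and Cg3g025670 were listed at 0 in red and averaged 0.467 and 0.673 FPKM in white. Cg5g033420 averaged 0.0167 FPKM in red against 0.767 FPKM in white. The marker genes named here were picked with their values known. The 9 phloem genes summed to 19.6 to 23.0 and 20.7 to 29.3 FPKM, and the 3 epidermis genes to 1.76 to 1.90 and 1.15 to 2.93 FPKM. The 8 green tissue genes summed to 437 to 473 and 456 to 554 FPKM. Of the 5 compared, 3 had a positive and 2 a negative difference. Cg2g044410, a light-harvesting protein gene, was called higher. Cg2g044400, with the same hit and the highest level of the list, was lower in red without overlap. It averaged 249.5 FPKM in red against 463 FPKM in white, a log2 difference of -0.88 (adjusted p = 0.000508 from limma). Cg4g021720, a ribulose bisphosphate carboxylase small chain gene, averaged 44.6 FPKM in red against 15.7 FPKM in white without overlap. Its log2 difference was 1.48 (adjusted p = 0.000878 from limma). Cg6g019580, of the same protein type, went the other way at 0.423 against 1.74 FPKM (-2.24, adjusted p = 0.0391 from limma). Neither was called. The seed storage sums were higher in red, at 6.02, 5.40 and 27.8 FPKM in red replicates 1, 2 and 3. Cg4g011140 was also higher in red, at 15.8, 19.5 and 17.9 FPKM in the same libraries. Of the 3 xylem genes compared, 1 had a positive and 2 a negative difference, and the weaker xylem genes named above were lower in red. The green tissue genes went both ways. The part of other tissues in the members' differences was not tested.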

How the data were processed

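Per the paper and the labels, the authors trimmed reads with Trimmomatic, aligned them with STAR 2.7.1a against the genome of C. maxima, deposited FPKM from RSEM 1.3.1, rounded to 2 decimals, and counted reads with featureCounts 2.0.1. Beside FPKM the authors deposited the mean normalized count over the 6 libraries (from DESeq2, a signal scaled by size factors), used here only to show depth. Their fold changes and p-values were not used. Libraries were assigned by title, and 0 value columns were left out.

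Members, lists and tests were chosen with earlier results of these data known. limma 3.58.1 in R 4.3.3 (cultivar as the only term, mean-variance trend) was fitted to log2(FPKM + 0.1) and tested on simulated data. Named were all members compared, members at 0.5 FPKM or more in a library, their neighbours by identifier and, in the pathway lists, the most expressed gene of a step. Alternatives were other pseudocounts, filters, scalings, thresholds, no trend, a replicate block and each library left out. Neither the labels nor the paper says that the replicate numbers pair the libraries. Depth of a single FPKM is unknown, so no counting interval is given. No genome was used, so sequences and coordinates were not examined. Python 3.11.15 was used for summaries.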

Additional observations from a re-analysis of the deposited data

Results flagged for a closer look

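Cg2g040870, a TPS-b gene with the hit AT4G16730, was listed at 0 FPKM in all 6 libraries, yet the authors' mean normalized count for it was 9.81 (a floor of 3 was set for counts). Of the 58 members listed at 0, 50 had a mean normalized count of 0. By its identifier Cg2g040870 lies between Cg2g040860 and Cg2g040890. The mean normalized count takes no part in the comparisons, and with a mean over both cultivars alone no direction can be given.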

How the results depend on the processing

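Both lower members, Cg2g023250 and Cg2g040850, were called in all 17 alternative settings, and with no filter on low values Cg2g023260 made 3. The settings reuse the same libraries, and the looser thresholds include every call of the main ones, so they are not separate evidence. The count of higher members was 0, but 1 with the looser thresholds (Cg4g011140) and 0 to 1 with each library left out, the 1 without red replicate 3 (Cg6g018160). The sign turned without red replicate 3 and without white replicate 3 for Cg5g022150 (-0.05 and -0.21, in a range of -0.21 to 0.30 with each library left out) and Cg5g022140 (-0.04 and -0.23, range -0.23 to 0.33), neither of which was called in any setting. Marker genes called numbered 4, but 2 with a pseudocount of 0.5 or 1, 7 with the looser thresholds, and 2 to 4 with each library left out. Over all genes 957 were called, 530 with a pseudocount of 1 and 2566 with the looser thresholds. Same-numbered libraries did not deviate together (correlations of deviations 0.000385, 0.0309 and -0.0446), and not every library correlated best with its own number. With the replicate block 2 members were lower and 0 higher, and 804 genes were called. Levels below 1 FPKM, which covers 13 of the 23 members above 0, lay under the level set for comparison.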
